A study of Mus musculus with 12 samples.

Results

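A set of 40 genes of glucose breakdown and of the response to low oxygen were followed in cultured mouse microglia that had received IL-34 or CSF-1. They were picked by symbol and no measured value entered the rule, but the list was chosen with earlier results of these data known. All 40 were found among the 46262 genes of the deposited table, which lists them under 303 transcripts. They comprise 3 transporters of glucose and lactate, 16 enzymes of the steps between glucose and lactate, 4 pyruvate dehydrogenase kinases, 3 enzymes that set fructose-2,6-bisphosphate, 1 subunit of the hypoxia-inducible factor (HIF) with 2 of its prolyl hydroxylases, 9 other targets of that factor and 2 glycogen enzymes. RNA was sequenced from primary microglia of wild-type mice in 4 groups of 3 libraries each: cerebellum with IL-34, cerebellum with CSF-1, forebrain with IL-34 and forebrain with CSF-1. IL-34 was given at 100 ng/ml and CSF-1 at 20 ng/ml, both for 24 hours, so that ligand and dose cannot be told apart. Each of the 3 replicates of a group came from its own mixed glial culture, a dish of astrocytes, microglia and other glia from which the microglia were then isolated. The deposited table is named as one of neonatal microglia, the labels give no age or sex of the mice, and no culture without added ligand was analysed here.

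Both ligands bind the same receptor, CSF1R, on which microglia depend for survival. Glycolysis converts glucose to pyruvate in the cytosol, and lactate dehydrogenase and the monocarboxylate transporters then remove the product as lactate. When oxygen falls, the prolyl hydroxylases that mark the HIF alpha subunit for destruction lose activity, the factor accumulates, and it activates most glycolytic genes together with a set of survival, matrix and angiogenic genes. In macrophages and microglia, the same factor and the same enzymes are also engaged by inflammatory stimuli at normal oxygen.

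Expression is given in the TPM that the authors deposited, a transcript abundance scaled to transcript length and to a fixed library total. TPM keeps no depth, so precision rests on the spread between the libraries within groups, pooled over all 12 libraries. The p-values below set each difference against that spread between cultures. Of 11 microglia markers, 10 were above 0 in all 12 libraries (Csf1r at 1128 to 1331 TPM) and the short Tyrobp was listed at 0 in 3 libraries, while P2ry12 (7.10 to 11.7 TPM) and Tmem119 (7.15 to 20.4 TPM) were low. The endothelial marker Cldn5 was listed at 0 in all 12 libraries. In such bulk RNA, fewer cells of a type and less RNA per cell cannot be told apart. The shortest transcripts that a library detected differed between groups. The transcript length below which 1% of the transcripts at 5 TPM or more lay was 503, 491 and 580 nt in the 3 cerebellum IL-34 libraries, against 592 to 669 nt in the 9 libraries of the other groups. Transcripts under 600 nt held 0.947 to 3.31% of TPM in cerebellum IL-34 libraries, against 0.0269 to 0.555% in the others. No listed gene is that short as a whole, but some have short transcripts among several.

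The levels of the listed genes ran across more than 4 orders of magnitude. Pkm, the pyruvate kinase of the last glycolytic step, averaged 3867 TPM over the 12 libraries and ranked 14 among all genes of the table. Aldoa (aldolase, 2499 TPM), Gapdh (2028 TPM) and Eno1 (enolase, 1852 TPM) ranked 27, 41 and 49. Ldha, the muscle-type subunit of lactate dehydrogenase, followed at 837.8 TPM. At the low end, Ak4, a mitochondrial adenylate kinase, averaged 0.547 TPM and Pdk4 0.209 TPM, and neither reached 1 TPM in 3 libraries, so that 38 of the 40 genes were tested. Where several enzymes share a step, 1 of them often dominated in all 12 libraries. Hk3 made up 73.1 to 78.9% of the TPM of the 3 hexokinases, Eno1 99.2 to 99.7% of the 2 enolases, Ldha 90.9 to 96.3% of Ldha and Ldhb together, and Hif1a 97.9 to 98.8% of the 3 HIF alpha subunits. Pfkp held 54.5 to 66.1% of phosphofructokinase TPM and Pfkl 31.7 to 42.6%, with Pfkm, the muscle enzyme, at 1.54 to 2.99%. Gapdh, Aldoa, Ldha, Pgam1, Tpi1, Eno1, Pgk1 and Pkm have processed copies elsewhere in the mouse genome, and how the authors' quantification split reads among such copies is uncertain.

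**Figure D1:**
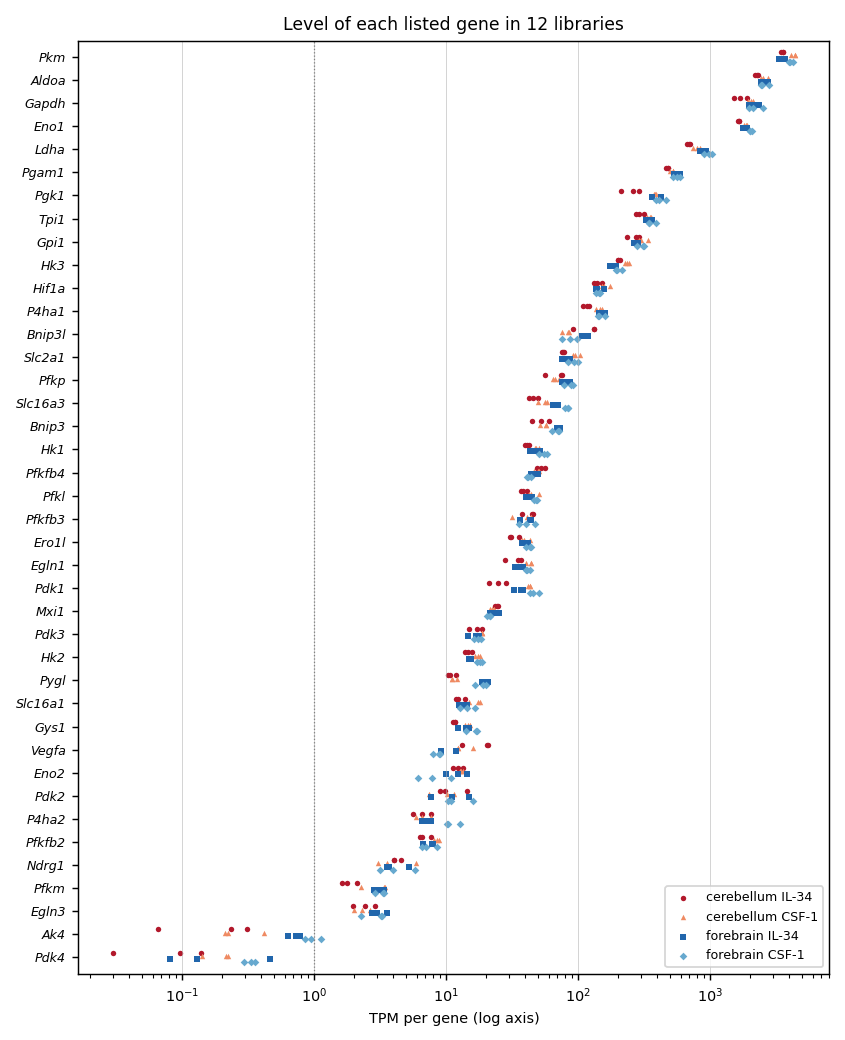
Level of each of the 40 genes in the 12 libraries, as TPM per gene on a log axis, ordered by the mean of all libraries; colours and markers give the 4 groups and the dotted line marks 1 TPM. Pkm lies highest at 3370 to 4442 TPM and Pdk4 lowest, and the groups of most genes lie close together compared with the distance between genes.

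The listed genes lie on 17 chromosomes. Promoter windows of RefSeq (GRCm38.p6, 250 bases before to 50 bases after the annotated start) were available for 37 of them. Shown here are the first listed windows of the 4 genes that were lower with IL-34, for the mean of both regions, under every setting tried (Pdk1, Pkm, Eno1 and Slc16a3) and of 2 genes that were lower in cerebellum under both ligands (Ldha and Pygl), each 5′ to 3′ on the strand of the gene. Capitals mark the letters ACGTG or GCGTG, the core of the element that HIF binds, on either strand (CACGT or CACGC where the match is on the other strand).
The Pdk1 window is chr2:71872974-71873273 on the plus strand, and Pkm is chr9:59656326-59656625 on the plus strand.
Pdk1: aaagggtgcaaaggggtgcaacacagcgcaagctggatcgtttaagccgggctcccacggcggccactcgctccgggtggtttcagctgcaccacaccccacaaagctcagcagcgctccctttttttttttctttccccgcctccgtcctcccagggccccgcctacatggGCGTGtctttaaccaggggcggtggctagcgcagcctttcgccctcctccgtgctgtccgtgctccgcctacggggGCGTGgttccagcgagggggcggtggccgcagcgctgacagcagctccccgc
Pkm: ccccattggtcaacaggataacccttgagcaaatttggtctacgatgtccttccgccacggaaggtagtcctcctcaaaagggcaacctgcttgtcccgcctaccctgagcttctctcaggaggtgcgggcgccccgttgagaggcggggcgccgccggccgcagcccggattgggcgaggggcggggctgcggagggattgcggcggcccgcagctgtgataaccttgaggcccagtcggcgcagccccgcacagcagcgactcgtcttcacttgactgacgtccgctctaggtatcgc
The Eno1 window is chr4:150236458-150236757 and the Slc16a3 window is chr11:120948817-120949116, both on the plus strand.
Eno1: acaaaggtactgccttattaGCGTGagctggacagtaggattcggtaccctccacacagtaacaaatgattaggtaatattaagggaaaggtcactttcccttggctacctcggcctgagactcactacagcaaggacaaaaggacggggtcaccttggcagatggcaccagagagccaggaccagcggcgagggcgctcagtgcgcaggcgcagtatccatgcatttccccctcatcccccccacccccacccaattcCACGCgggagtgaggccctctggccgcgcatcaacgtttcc
Slc16a3: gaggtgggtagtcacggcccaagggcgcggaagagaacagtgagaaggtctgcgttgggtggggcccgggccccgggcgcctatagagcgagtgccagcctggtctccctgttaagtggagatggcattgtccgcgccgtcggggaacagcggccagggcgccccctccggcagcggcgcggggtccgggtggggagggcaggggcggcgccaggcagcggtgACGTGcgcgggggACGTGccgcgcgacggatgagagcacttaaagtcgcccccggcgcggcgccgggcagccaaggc
For Ldha it is chr7:46845554-46845853 on the plus strand, and for Pygl chr12:70227634-70227933 on the minus strand.
Ldha: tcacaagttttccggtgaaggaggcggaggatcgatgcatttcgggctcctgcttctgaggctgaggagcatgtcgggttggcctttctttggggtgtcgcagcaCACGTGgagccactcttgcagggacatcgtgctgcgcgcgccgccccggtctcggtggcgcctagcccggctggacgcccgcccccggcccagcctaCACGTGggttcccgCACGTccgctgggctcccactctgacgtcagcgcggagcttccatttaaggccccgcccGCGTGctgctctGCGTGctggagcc
Pygl: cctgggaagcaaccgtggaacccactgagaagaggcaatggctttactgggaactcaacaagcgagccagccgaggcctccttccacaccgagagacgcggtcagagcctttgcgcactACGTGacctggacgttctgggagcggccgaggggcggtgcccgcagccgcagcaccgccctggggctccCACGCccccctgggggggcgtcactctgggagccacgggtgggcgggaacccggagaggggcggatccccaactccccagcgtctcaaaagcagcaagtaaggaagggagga
The Ldha window held 7 matches, counting the palindromic CACGTG on each strand, whereas Pdk1, Eno1, Slc16a3 and Pygl held 2 each and the first Pkm window 0. Over all listed genes, 28 of 37 first windows (75.7%) held at least 1 match. The share was 63.9% of the 8996 windows of genes tested here and 43.8% of the 27025 windows of all genes. It was 10 of 13 windows among the genes called lower with IL-34 and 16 of 22 among those not called in that comparison. A match of 5 letters is a description of the sequence and not a binding site, and a window without one says only that these letters are absent from it.

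With IL-34, 14 of the listed genes were lower than with CSF-1, 8 enzymes of the glycolytic steps among them, and each change was small, with log2 fold changes between -0.57 (Pdk1) and -0.17 (Eno1). Averaged over both regions, 15 of the 38 tested genes passed the test (limma on log2(TPM + 1), Benjamini-Hochberg adjusted p under 0.05 over 12419 genes), against 13.4% of all genes. The lower genes were 14 of 38, against 10.7% of all genes, and the 1 higher gene was Bnip3l, against 2.73% of all genes. Among the 16 enzymes of the glycolytic steps, 8 fell and none rose, and under median-of-ratios scaling 4 fell (Hk2, Pgk1, Eno1 and Pkm) and under quantile normalization 6. Their median log2 fold change was -0.17, against -0.07 over all genes tested, and 15 of the 16 lay below 0 (13 under median-of-ratios scaling and 14 under quantile normalization). Of the 9 other HIF targets 8 were tested, of which 1 rose (Bnip3l) and 1 fell (Ero1l), and their median was -0.0042, which became 0.07 under median-of-ratios scaling and 0.05 under quantile normalization. The largest fall was that of Pdk1, at a log2 fold change of -0.57 (SE 0.071, adjusted p = 0.000863). Under median-of-ratios scaling, the calls of the mean over both regions were 3 higher (Bnip3l, Mxi1 and Pfkfb4) and 7 lower, and under quantile normalization 2 higher (Bnip3l and Mxi1) and 9 lower.

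Within cerebellum, 14 of the 38 genes passed the test, against 12.8% of all genes, with 13 lower (9.82% of all genes) and 1 higher (3% of all genes). Within forebrain 0 genes passed, against 1.2% of all genes (0.427% higher and 0.773% lower). An unadjusted p under 0.05 in limma, the only tool run, was reached by 14, and the share of all genes at that cutoff was not counted. Markers of other cells also moved with the ligand in cerebellum. The summed levels were 74.7 to 80.7 TPM with IL-34, against 90.1 to 99.7 TPM with CSF-1, for 8 oligodendrocyte lineage markers (1 of 4 tested was called lower), and 14.5 to 15.7 TPM with IL-34, against 17.1 to 19.8 TPM with CSF-1, for 8 astrocyte markers (0 of 6 called). For 5 border macrophage markers they were 2140 to 2391 TPM with IL-34, against 1723 to 2001 TPM with CSF-1 (0 of 3 called), with Lyve1 and Pf4 each listed at 0 in 3 libraries. Most of this sum was Ms4a7, at a mean of 2112 TPM with IL-34, against 1776 TPM with CSF-1. Pf4 was also higher with IL-34 (106 against 41.8 TPM), while Mrc1 was lower (25.5 against 29.7 TPM). The short Tyrobp, a microglia marker also listed at 0 in 3 libraries, had a higher mean with IL-34 too (1816 against 620 TPM). The part of the length floor in the Pf4 difference was not tested. Lyve1 and Cd163 stayed under 1 TPM. The part of these other cells in the ligand differences was not tested. The 2 regions share no library in these comparisons. The ligand difference lay below 0 in both regions for 21 of 38 genes (55.3%, against 46.2% of all genes tested), above 0 in both for 6 (15.8%, against 16.9%), and had opposite signs for 11. The median ligand difference was -0.21 in cerebellum and -0.08 in forebrain, against -0.10 and -0.04 over all genes. The difference between the regions in the response to the ligand (the interaction) passed for 0 of 38 genes, against 0.145% of all genes (0.121% above 0 and 0.0242% below 0). An unadjusted p under 0.05 was reached by 6, again without a count over all genes. The smallest of these was that of P4ha1 (interaction on the log2 scale -0.33, SE 0.09, 95% interval -0.54 to -0.13, adjusted p = 0.272 by limma). A smaller effect in forebrain is therefore not shown. In cerebellum, median-of-ratios scaling moved the median of all genes from -0.0996 to 0.0032, and with it 2 genes were called higher and 5 lower. When each library's length floor was fitted as a covariate, the calls in cerebellum fell to 0, and for the mean of both regions 6 remained past the threshold (Slc16a3, Eno1, Pkm, Pdk1 and Egln1 lower, and Bnip3l higher), while 5 were called in forebrain (Slc16a3, Pkm, Pdk1 and P4ha2 lower, and Bnip3l higher).

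**Figure D2:**
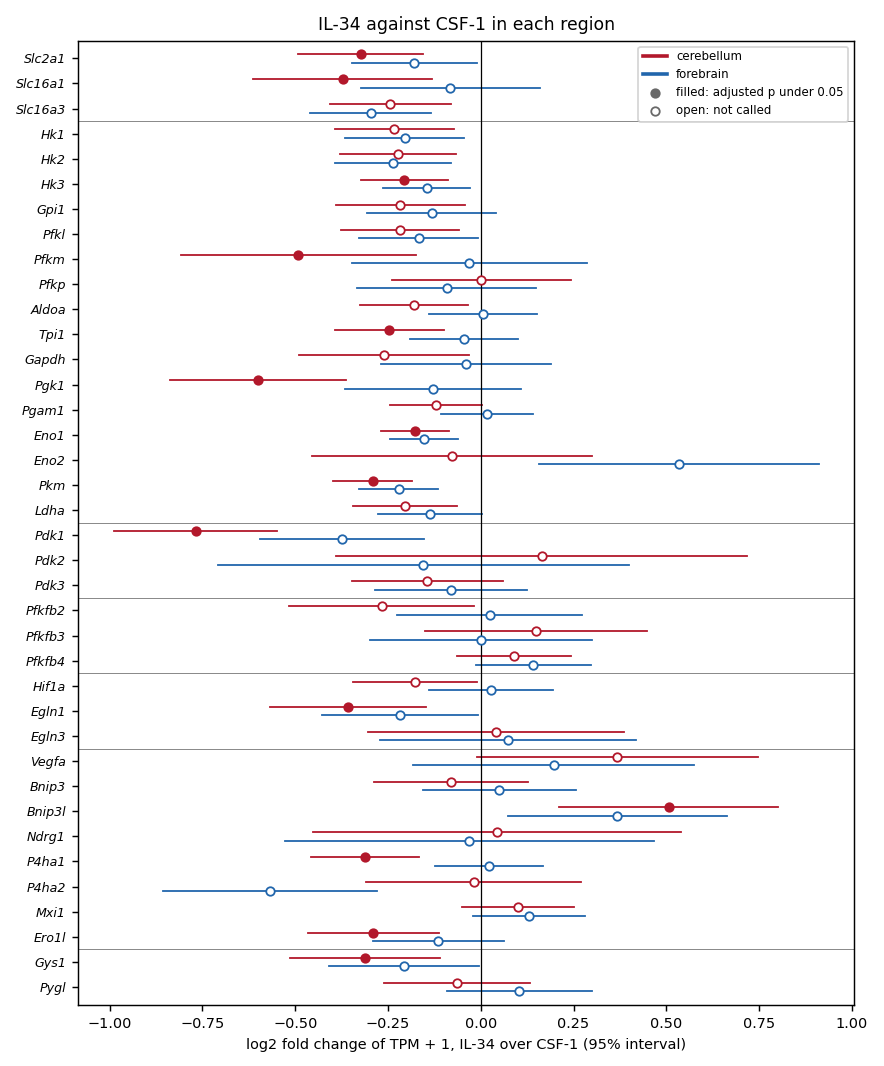
Log2 fold change of TPM + 1, IL-34 over CSF-1, for the 38 tested genes in cerebellum (red) and forebrain (blue), with 95% intervals from limma and filled points where the adjusted p was under 0.05; horizontal lines separate the roles in the order of the text. In cerebellum 13 genes are filled below 0 and Bnip3l is filled above 0, while in forebrain no point is filled and 24 of 38 lie below 0.

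Between the regions, the listed genes that passed the test were mostly lower in cerebellum. Under IL-34, 12 of 38 passed the test, against 13.5% of all genes, with 11 lower in cerebellum (8.22% of all genes) and Vegfa higher (5.27% of all genes). Under CSF-1, 5 of 38 passed, against 6.71% of all genes, with 4 lower (3.42%) and Hk3 higher (3.29%). Whether called or not, 7 of 38 had all cerebellar libraries higher under CSF-1 (17.2% of all genes) and 8 all lower (12.2%). Under IL-34 these counts were 2 (14.1%) and 17 (18.9%). Slc16a3, Ldha and Pygl passed under both ligands, in comparisons that share no library but come from 1 fit with a shared variance estimate. The Ldha call under CSF-1 was kept in 9 of the 12 other settings and in 8 of the 12 fits that left out 1 library. The median difference was -0.11 under IL-34, against -0.02 over all genes, and -0.07 under CSF-1, against 0.03 over all genes. With the length floor as a covariate, 0 genes passed under IL-34 and 6 under CSF-1. Under quantile normalization the calls under CSF-1 were 2 higher (Hk3 and Eno2) and 3 lower. Markers of other cells differed between the regions as well. The 4 choroid plexus and ependyma markers summed to 14.8 to 57.9 TPM in cerebellum IL-34, 21.4 to 38.3 TPM in cerebellum CSF-1, 1.94 to 2.01 TPM in forebrain IL-34 and 1.77 to 2.42 TPM in forebrain CSF-1 libraries, with Ttr listed at 0 in 3 libraries. The 8 astrocyte markers summed to 14.5 to 15.7, 17.1 to 19.8, 28.9 to 31.7 and 29.0 to 31.7 TPM in these groups in the same order, with S100b listed at 0 in 4 libraries. Of the astrocyte markers, 3 of 6 tested were lower in cerebellum under each ligand, and of the choroid markers 2 of 3 tested were higher and 1 lower. Under each ligand, 2 of 4 tested markers of the oligodendrocyte lineage were higher in cerebellum, and 1 of 2 of fibroblasts, mural and endothelial cells and 1 of 3 of border macrophages were lower. The 1 tested neuron marker was lower under IL-34. The oligodendrocyte lineage markers summed to 74.7 to 80.7 TPM in cerebellum IL-34, 90.1 to 99.7 TPM in cerebellum CSF-1, 56.4 to 63.1 TPM in forebrain IL-34 and 58.3 to 71.3 TPM in forebrain CSF-1 libraries, with Mog listed at 0 in 9 libraries. Their part in the differences below was not tested.

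**Figure D3:**
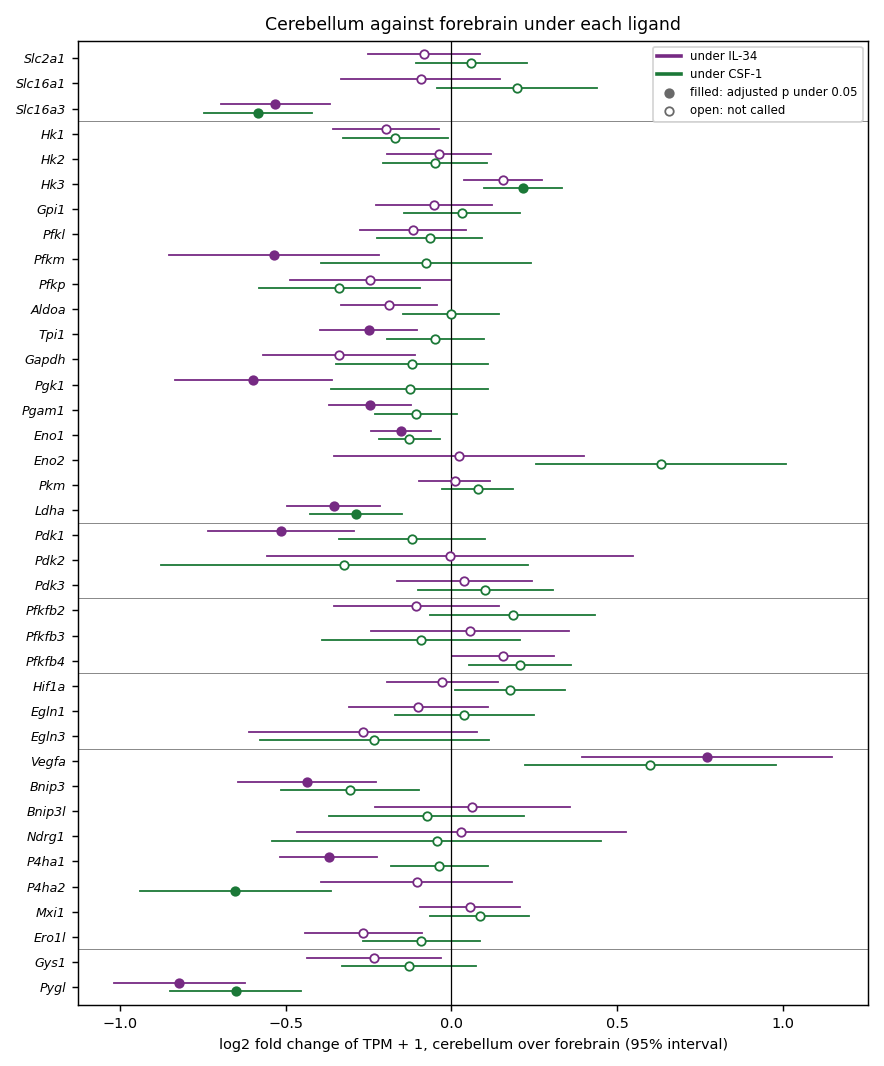
Log2 fold change of TPM + 1, cerebellum over forebrain, for the 38 tested genes under IL-34 (purple) and CSF-1 (green), with 95% intervals from limma and filled points where the adjusted p was under 0.05. Slc16a3, Ldha and Pygl are filled below 0 under both ligands, and Vegfa is filled above 0 under IL-34.

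In the gene accounts below, groups that do not overlap are common in the whole table. Between the ligands, 36.2% of all genes tested had no overlap in cerebellum and 18.5% in forebrain. Between the regions, 32.9% had none under IL-34 and 29.4% under CSF-1. Of the 3 transporters, 2 fell with IL-34 over both regions and the other one fell in cerebellum. Slc16a3 encodes MCT4, the low-affinity lactate exporter of glycolytic cells. Slc16a3 was at 45.6, 42.97 and 50.04 TPM with IL-34 in cerebellar cultures, against 58.2, 56.3 and 50.2 TPM with CSF-1. In forebrain cultures, Slc16a3 was at 71.3, 64.5 and 65.6 TPM with IL-34, against 83.5, 79.5 and 84.96 TPM with CSF-1. With either ligand every cerebellar library was lower than every forebrain library, and within each region every IL-34 library was lower than every CSF-1 library, in cerebellum by a narrow margin. The ligand difference averaged over the regions was a log2 fold change of -0.27 (SE 0.053, adjusted p = 0.00854). The cerebellar difference was a log2 fold change of -0.53 (SE 0.074, adjusted p = 0.0013) under IL-34, and a log2 fold change of -0.58 (SE 0.074, adjusted p = 0.00101) under CSF-1. Slc2a1 encodes GLUT1, the basal glucose transporter. Slc2a1 was at 78.5, 75.3 and 77.6 TPM with IL-34 in cerebellar cultures, against 104, 95.2 and 91.2 TPM with CSF-1. In forebrain cultures, Slc2a1 was at 87.9, 82.7 and 75.2 TPM with IL-34, against 84.9, 94.02 and 99.9 TPM with CSF-1. The cerebellar groups did not overlap and the forebrain groups did. Slc2a1 fell over both regions, at a log2 fold change of -0.25 (SE 0.054, adjusted p = 0.0136), and within cerebellum, at a log2 fold change of -0.32 (SE 0.077, adjusted p = 0.0241). Slc16a1 encodes MCT1, the more widely expressed monocarboxylate transporter. Slc16a1 was at 12.5, 12.03 and 13.95 TPM with IL-34 in cerebellar cultures, against 18.1, 17.6 and 15.00 TPM with CSF-1. In forebrain cultures, Slc16a1 was at 14.5, 14.04 and 12.6 TPM with IL-34, against 12.8, 14.5 and 16.6 TPM with CSF-1. It fell with IL-34 in cerebellum, where the groups did not overlap, at a log2 fold change of -0.37 (SE 0.11, adjusted p = 0.0478), and its forebrain groups overlapped. Slc16a3 held 78.1 to 78.5% of the TPM of these 2 transporters in cerebellum IL-34, 76.2 to 77.0% in cerebellum CSF-1, 82.1 to 83.9% in forebrain IL-34 and 83.7 to 86.7% in forebrain CSF-1 libraries.

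All 3 hexokinases, which phosphorylate glucose on entry, fell with IL-34 over both regions. Hk3, the myeloid isoform, was by far the most abundant. Hk3 was at 209, 203 and 202 TPM with IL-34 in cerebellar cultures, against 237, 245 and 227 TPM with CSF-1. In forebrain cultures, Hk3 was at 194, 183 and 174 TPM with IL-34, against 196, 214 and 199 TPM with CSF-1. No IL-34 library reached the CSF-1 libraries of its region, and cerebellar libraries lay above forebrain libraries under each ligand. Its ligand difference was a log2 fold change of -0.18 (SE 0.038, adjusted p = 0.0136), and its cerebellar excess passed the test under CSF-1, at a log2 fold change of 0.22 (SE 0.054, adjusted p = 0.0362). Hk1 is the ubiquitous hexokinase. Hk1 was at 42.8, 39.9 and 41.00 TPM with IL-34 in cerebellar cultures, against 50.7, 47.2 and 47.9 TPM with CSF-1. In forebrain cultures, Hk1 was at 51.9, 43.8 and 46.7 TPM with IL-34, against 51.2, 58.2 and 55.2 TPM with CSF-1. The forebrain groups touched, since 1 IL-34 library exceeded the lowest CSF-1 library. Its mean difference was a log2 fold change of -0.22 (SE 0.051, adjusted p = 0.0191). Hk2, the inducible isoform and a HIF target, was the least abundant of the 3. Hk2 was at 13.9, 14.7 and 15.9 TPM with IL-34 in cerebellar cultures, against 17.5, 18.3 and 16.6 TPM with CSF-1. In forebrain cultures, Hk2 was at 15.4, 15.02 and 15.2 TPM with IL-34, against 17.3, 18.9 and 18.1 TPM with CSF-1. The groups did not overlap in either region, and the mean difference was a log2 fold change of -0.23 (SE 0.05, adjusted p = 0.0147).

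Of the 3 phosphofructokinases, which catalyse the committed step of glycolysis, the liver-type Pfkl and the low muscle-type Pfkm passed the test. Pfkl was at 37.1, 41.5 and 38.7 TPM with IL-34 in cerebellar cultures, against 42.4, 50.5 and 44.4 TPM with CSF-1. In forebrain cultures, Pfkl was at 44.6, 40.8 and 42.01 TPM with IL-34, against 47.99, 48.9 and 46.5 TPM with CSF-1. Its groups did not overlap in either region, and the mean difference was a log2 fold change of -0.19 (SE 0.051, adjusted p = 0.0319). This call was fragile, and it was kept in 4 of the 12 fits that left out 1 library. Pfkm was at 2.12, 1.64 and 1.79 TPM with IL-34 in cerebellar cultures, against 3.39, 3.45 and 2.27 TPM with CSF-1. In forebrain cultures, Pfkm was at 3.41, 3.09 and 2.88 TPM with IL-34, against 2.90, 3.39 and 3.35 TPM with CSF-1. Pfkm was lowest in the cerebellum IL-34 group, which overlapped neither the cerebellum CSF-1 nor the forebrain IL-34 group. It fell with IL-34 in cerebellum, at a log2 fold change of -0.49 (SE 0.14, adjusted p = 0.0473), and was lower in cerebellum than in forebrain under IL-34, at a log2 fold change of -0.54 (SE 0.14, adjusted p = 0.0318). At this level the added pseudocount of 1 TPM shrinks the fold. The platelet-type Pfkp (56.1 to 91.9 TPM) and the isomerase Gpi1 (238 to 338 TPM) passed no test.

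The steps from triose phosphate to phosphoenolpyruvate lead through Tpi1, Gapdh, Pgk1, Pgam1 and the enolases. Pgk1, phosphoglycerate kinase, had the largest fall over both regions after that of Pdk1. Pgk1 was at 213, 262 and 292 TPM with IL-34 in cerebellar cultures, against 390.4, 378 and 387 TPM with CSF-1. In forebrain cultures, Pgk1 was at 428, 362 and 365 TPM with IL-34, against 412, 389 and 462 TPM with CSF-1. The cerebellum IL-34 libraries lay below all 9 others, and the forebrain groups overlapped. Pgk1 fell with IL-34 in cerebellum, at a log2 fold change of -0.60 (SE 0.11, adjusted p = 0.009), and over both regions, at a log2 fold change of -0.36 (SE 0.076, adjusted p = 0.0118). It was lower in cerebellum than in forebrain under IL-34, at a log2 fold change of -0.60 (SE 0.11, adjusted p = 0.0049). A transcript of 731 nt held 26.8% of its TPM. Eno1 had a small and even change. Eno1 was at 1671, 1634 and 1658 TPM with IL-34 in cerebellar cultures, against 1889.7, 1925 and 1802 TPM with CSF-1. In forebrain cultures, Eno1 was at 1919, 1809 and 1788 TPM with IL-34, against 2012, 2024 and 2095 TPM with CSF-1. In each region the IL-34 libraries were all lower than the CSF-1 libraries. The mean difference was a log2 fold change of -0.17 (SE 0.03, adjusted p = 0.00588), with the cerebellar difference at a log2 fold change of -0.18 (SE 0.042, adjusted p = 0.0232). Eno1 was also lower in cerebellum under IL-34, at a log2 fold change of -0.15 (SE 0.042, adjusted p = 0.0349). Tpi1, triose phosphate isomerase, was lowest in the cerebellum IL-34 group. Tpi1 was at 316, 275 and 292 TPM with IL-34 in cerebellar cultures, against 360.2, 351 and 336 TPM with CSF-1. In forebrain cultures, Tpi1 was at 367, 353 and 329 TPM with IL-34, against 346, 348 and 389.6 TPM with CSF-1. That group overlapped neither of the groups it was set against, and the difference was a log2 fold change of -0.25 (SE 0.067, adjusted p = 0.0375) between the ligands in cerebellum, and a log2 fold change of -0.25 (SE 0.067, adjusted p = 0.0311) between the regions under IL-34. Pgam1, phosphoglycerate mutase, differed between the regions under IL-34. Pgam1 was at 485, 465 and 479 TPM with IL-34 in cerebellar cultures, against 528, 529 and 497 TPM with CSF-1. In forebrain cultures, Pgam1 was at 599, 561 and 536 TPM with IL-34, against 524, 561 and 592 TPM with CSF-1. Its cerebellar difference under IL-34 was a log2 fold change of -0.25 (SE 0.056, adjusted p = 0.0163), and its ligand differences did not pass.

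Pkm and Ldha end the pathway. Pkm makes pyruvate and was the most abundant gene of the set. Pkm was at 3589, 3454 and 3560.1 TPM with IL-34 in cerebellar cultures, against 4442, 4384 and 4151 TPM with CSF-1. In forebrain cultures, Pkm was at 3719, 3369.8 and 3452 TPM with IL-34, against 3966, 4066 and 4249 TPM with CSF-1. In both regions all IL-34 libraries were lower than all CSF-1 libraries, while the regions overlapped under each ligand. The mean difference was a log2 fold change of -0.26 (SE 0.034, adjusted p = 0.00125), and the cerebellar difference was a log2 fold change of -0.29 (SE 0.049, adjusted p = 0.00687). In forebrain it was a log2 fold change of -0.22 (SE 0.049, adjusted p = 0.0584), the smallest p of the set there. The table lists 83.3% of Pkm TPM under ENSMUST00000034834 and 16.7% under ENSMUST00000163694. The first of these averaged 2928 TPM in cerebellum IL-34, 3546 TPM in cerebellum CSF-1, 2978 TPM in forebrain IL-34 and 3435 TPM in forebrain CSF-1 libraries. The other one averaged 606.3 TPM, 779.6 TPM, 535.1 TPM and 658.9 TPM in the same order of groups. Both were thus lower on average with IL-34, and neither was tested alone. Ldha turns pyruvate into lactate. Ldha was at 710.1, 668 and 697 TPM with IL-34 in cerebellar cultures, against 748, 844 and 801 TPM with CSF-1. In forebrain cultures, Ldha was at 931, 892 and 836 TPM with IL-34, against 907, 1038 and 981 TPM with CSF-1. Its cerebellar libraries were below its forebrain libraries under each ligand, with differences of a log2 fold change of -0.36 (SE 0.063, adjusted p = 0.00465) under IL-34, and a log2 fold change of -0.29 (SE 0.063, adjusted p = 0.0216) under CSF-1. Its mean ligand difference was a log2 fold change of -0.17 (SE 0.045, adjusted p = 0.0299), a call kept in 5 of the 12 fits that left out 1 library. Aldoa (2205 to 2786 TPM), Gapdh (1525 to 2548 TPM) and Eno2, the neuronal enolase (6.12 to 14.5 TPM), passed no test with all transcripts summed. With transcripts of 1000 nt or more, Gapdh passed as lower, at -0.29 for the mean of the ligand differences (adjusted p = 0.00413), -0.51 in cerebellum (adjusted p = 0.00223) and -0.56 between the regions under IL-34 (adjusted p = 0.000543, all by limma). Under the same setting Gpi1 (-0.42), Pfkp (-0.19) and Aldoa (-0.15) passed as lower with IL-34 in cerebellum. TPM were not rescaled after the shorter transcripts were left out. Transcripts under 600 nt held more of the TPM in cerebellum IL-34 libraries than in all others, so leaving short ones out can lower that group. How far it did so was not tested. Eno2 was 10.1 to 14.5 TPM in forebrain IL-34, against 6.12 to 10.9 TPM in forebrain CSF-1 libraries, at a log2 fold change of 0.53 (SE 0.17, adjusted p = 0.173).

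**Figure D4:**
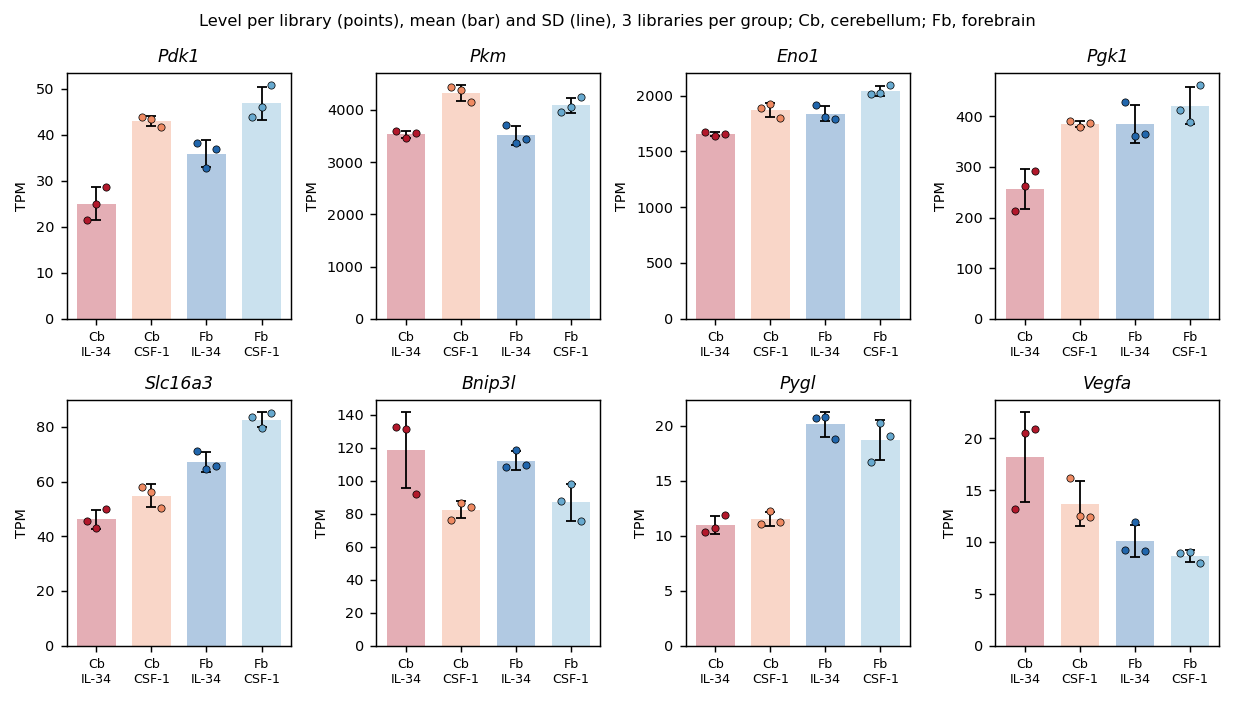
TPM of 8 genes in each library (points), with the mean of the group (bar, from 0) and the SD (line), n = 3 libraries per group, for cerebellum IL-34, cerebellum CSF-1, forebrain IL-34 and forebrain CSF-1 from left to right. Pdk1, Pkm, Eno1 and Slc16a3 are lower with IL-34 than with CSF-1 in both regions, Bnip3l is higher, Pygl is lower in cerebellum than in forebrain, and Vegfa is highest in cerebellum.

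The pyruvate dehydrogenase kinases restrain the entry of pyruvate into the mitochondrial citric acid cycle, and Pdk1 is the HIF-induced member. Pdk1 was at 21.4, 24.9 and 28.6 TPM with IL-34 in cerebellar cultures, against 43.7, 43.3 and 41.7 TPM with CSF-1. In forebrain cultures, Pdk1 was at 38.2, 32.7 and 36.8 TPM with IL-34, against 43.7, 45.96 and 50.8 TPM with CSF-1. Every IL-34 library was below every CSF-1 library of its region, and the cerebellum IL-34 group lay below all others. Pdk1 fell with IL-34 in cerebellum, at a log2 fold change of -0.77 (SE 0.10, adjusted p = 0.00248), which is a fall by 41.3% on the TPM + 1 scale. In forebrain it was a log2 fold change of -0.37 (SE 0.10, adjusted p = 0.104), which did not pass, and the interaction was a log2 difference of -0.39 (SE 0.14, adjusted p = 0.329). Under IL-34 it was lower in cerebellum than in forebrain, at a log2 fold change of -0.51 (SE 0.10, adjusted p = 0.00739). Pdk1 made up 46.2 to 47.3% of the TPM of the 4 kinases in cerebellum IL-34, 58.7 to 61.3% in cerebellum CSF-1, 53.6 to 59.9% in forebrain IL-34 and 59.3 to 61.7% in forebrain CSF-1 libraries. The other kinases were Pdk2 (7.45 to 16.2 TPM) and Pdk3 (14.8 to 18.9 TPM), which passed no test, and Pdk4 (0.0298 to 0.468 TPM), which was too low to be tested.

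The bifunctional PFKFB enzymes make and break fructose-2,6-bisphosphate, the strongest activator of phosphofructokinase. None of the 3 passed any test with all transcripts summed. Pfkfb3 (31.9 to 47.4 TPM), the inducible and kinase-dominant form, overlapped between the ligands in both regions, at a log2 fold change of 0.074 (SE 0.10, adjusted p = 0.646). With transcripts of 1000 nt or more it passed as higher, at 0.23 for the mean (adjusted p = 0.0207), 0.46 between the ligands in cerebellum (adjusted p = 0.00489) and 0.48 between the regions under IL-34 (adjusted p = 0.0019, all by limma). Pfkfb4 (41.1 to 56.4 TPM) was at a log2 fold change of 0.12 (SE 0.05, adjusted p = 0.147), and under median-of-ratios scaling this difference was 0.19 and passed. Pfkfb2 (6.41 to 8.81 TPM) was the lowest of the 3.

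Hif1a itself passed no test. It was at 133.5 to 153.5 TPM with IL-34 and 151.2 to 174.7 TPM with CSF-1 in cerebellum, and at 137.8 to 158.7 TPM with IL-34 and 136.2 to 146.3 TPM with CSF-1 in forebrain. Between the ligands the groups overlapped in each region, and the mean ligand difference was a log2 fold change of -0.075 (SE 0.054, adjusted p = 0.378). The activity of the HIF protein is set mainly by its stability, which RNA levels do not measure. Egln1 encodes PHD2, the principal oxygen-sensing hydroxylase. Egln1 was at 35.4, 37.1 and 28.05 TPM with IL-34 in cerebellar cultures, against 44.4, 40.6 and 43.9 TPM with CSF-1. In forebrain cultures, Egln1 was at 38.1, 35.6 and 33.6 TPM with IL-34, against 40.6, 43.4 and 41.3 TPM with CSF-1. The IL-34 libraries were all lower than the CSF-1 libraries in each region, at a log2 fold change of -0.29 (SE 0.068, adjusted p = 0.0194) over both, and at a log2 fold change of -0.36 (SE 0.10, adjusted p = 0.0364) in cerebellum. Egln3 encodes PHD3, whose gene is itself a HIF target, and was at 1.97 to 3.56 TPM, with a log2 fold change of 0.057 (SE 0.11, adjusted p = 0.765).

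Among the other HIF targets, Bnip3l was the 1 listed gene that was higher with IL-34. It encodes NIX, a receptor for the removal of mitochondria by autophagy. Bnip3l was at 132, 132 and 92.1 TPM with IL-34 in cerebellar cultures, against 76.4, 86.3 and 83.98 TPM with CSF-1. In forebrain cultures, Bnip3l was at 108, 119 and 109 TPM with IL-34, against 87.7, 97.9 and 75.5 TPM with CSF-1. All IL-34 libraries were above all CSF-1 libraries in each region, and the regions overlapped. The mean difference was a log2 fold change of 0.44 (SE 0.095, adjusted p = 0.0139), and the cerebellar one was a log2 fold change of 0.51 (SE 0.13, adjusted p = 0.0351). A transcript of 789 nt held 52.4% of Bnip3l TPM and one of 3238 nt held 43.0%. The longer one averaged 39.9 TPM in cerebellum IL-34, against 35.8 TPM in cerebellum CSF-1, and 53.0 TPM in forebrain IL-34, against 43.2 TPM in forebrain CSF-1 libraries. When only transcripts of 1000 nt or more were summed, the mean difference was 0.22 and still passed, while the cerebellar one was 0.16 (adjusted p = 0.195 by limma) and did not. Its relative Bnip3 passed no test between the ligands. Bnip3 was at 44.9, 52.9 and 60.4 TPM with IL-34 in cerebellar cultures, against 57.6, 57.01 and 51.8 TPM with CSF-1. In forebrain cultures, Bnip3 was at 69.9, 72.7 and 70.9 TPM with IL-34, against 71.4, 63.8 and 71.2 TPM with CSF-1. It was lower in cerebellum under IL-34, at a log2 fold change of -0.44 (SE 0.094, adjusted p = 0.0125).

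P4ha1 and P4ha2 encode the catalytic subunits of collagen prolyl hydroxylase, and Ero1l the oxidase that supplies disulphide bonds in the endoplasmic reticulum. P4ha1 was at 122, 110.2 and 117 TPM with IL-34 in cerebellar cultures, against 152, 146 and 138 TPM with CSF-1. In forebrain cultures, P4ha1 was at 160.1, 148 and 146 TPM with IL-34, against 142, 144 and 161 TPM with CSF-1. The cerebellum IL-34 libraries of P4ha1 lay below all 9 other libraries. It fell with IL-34 in cerebellum, at a log2 fold change of -0.31 (SE 0.066, adjusted p = 0.0158), and was lower there than in forebrain under IL-34, at a log2 fold change of -0.37 (SE 0.066, adjusted p = 0.0047). P4ha2 was at 6.56, 5.62 and 7.70 TPM with IL-34 in cerebellar cultures, against 7.66, 6.55 and 5.93 TPM with CSF-1. In forebrain cultures, P4ha2 was at 7.71, 7.18 and 6.60 TPM with IL-34, against 10.2, 12.8 and 10.5 TPM with CSF-1. P4ha2 instead stood out in the forebrain CSF-1 group, which lay above all other libraries. It was lower in cerebellum under CSF-1, at a log2 fold change of -0.65 (SE 0.13, adjusted p = 0.014). Its ligand difference in forebrain, a log2 fold change of -0.57 (SE 0.13, adjusted p = 0.0684), did not pass. Ero1l was at 31.3, 30.4 and 36.1 TPM with IL-34 in cerebellar cultures, against 43.1, 37.6 and 39.4 TPM with CSF-1. In forebrain cultures, Ero1l was at 42.2, 38.2 and 37.7 TPM with IL-34, against 43.1, 44.1 and 40.8 TPM with CSF-1. Ero1l fell with IL-34 in cerebellum, at a log2 fold change of -0.29 (SE 0.08, adjusted p = 0.0404), and over both regions, at a log2 fold change of -0.20 (SE 0.057, adjusted p = 0.0383), a call kept in 3 of the 12 fits that left out 1 library.

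Vegfa, the angiogenic growth factor and a classical HIF target, was with Hk3 one of the 2 listed genes called higher in cerebellum. Vegfa was at 13.2, 20.5 and 20.9 TPM with IL-34 in cerebellar cultures, against 16.2, 12.5 and 12.4 TPM with CSF-1. In forebrain cultures, Vegfa was at 9.24, 11.9 and 9.13 TPM with IL-34, against 8.89, 9.05 and 7.95 TPM with CSF-1. All cerebellar libraries were above all forebrain libraries under each ligand. The difference passed under IL-34, at a log2 fold change of 0.77 (SE 0.17, adjusted p = 0.0145), and not under CSF-1, at a log2 fold change of 0.60 (SE 0.17, adjusted p = 0.0621). Between the ligands its cerebellar groups overlapped. Ndrg1 (3.08 to 5.94 TPM) and Mxi1 (20.6 to 25.4 TPM), a repressor of Myc targets, passed no test. Mxi1 was at a log2 fold change of 0.12 (SE 0.048, adjusted p = 0.137), and it passed as higher under both other scalings. Ak4 was below the filter, at 0.066 to 0.419 TPM in the 6 cerebellar libraries and 0.642 to 1.13 TPM in the 6 forebrain libraries.

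Of the 2 glycogen enzymes, Pygl was called between the regions and Gys1 between the ligands. Pygl is the liver-type glycogen phosphorylase, which releases glucose from glycogen. Pygl was at 10.3, 10.7 and 11.8 TPM with IL-34 in cerebellar cultures, against 11.1, 12.2 and 11.2 TPM with CSF-1. In forebrain cultures, Pygl was at 20.7, 20.8 and 18.8 TPM with IL-34, against 16.7, 20.3 and 19.1 TPM with CSF-1. Cerebellar and forebrain libraries did not overlap under either ligand, while the ligands overlapped within each region. The difference was a log2 fold change of -0.82 (SE 0.089, adjusted p = 0.000256) under IL-34, and a log2 fold change of -0.65 (SE 0.089, adjusted p = 0.00154) under CSF-1, and it was the largest in size among the listed genes under IL-34. Gys1 is the glycogen synthase of most tissues outside the liver. Gys1 was at 11.3, 11.7 and 11.8 TPM with IL-34 in cerebellar cultures, against 13.9, 14.8 and 15.2 TPM with CSF-1. In forebrain cultures, Gys1 was at 14.3, 12.3 and 14.9 TPM with IL-34, against 14.3, 17.1 and 16.9 TPM with CSF-1. It fell over both regions, at a log2 fold change of -0.26 (SE 0.065, adjusted p = 0.025), and in cerebellum, at a log2 fold change of -0.31 (SE 0.092, adjusted p = 0.0485), while its forebrain groups overlapped. The call over both regions was kept in 5 of the 12 fits that left out 1 library and in 6 of the 11 other settings, over which the difference came as close to 0 as -0.035 (adjusted p = 0.711 by limma, with short transcripts left out and the trends of length and GC content removed). Under IL-34 its cerebellar libraries were also all below its forebrain libraries, at a log2 fold change of -0.23 (SE 0.092, adjusted p = 0.118), which did not pass.

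Other genes of these pathways were counted as lists. Of 31 tested genes of glycolysis, glycogen and pyruvate handling outside the set, 1 rose and 3 fell with IL-34 over both regions, a share of 12.9% called against 13.4% of all genes. Ldhb, the heart-type lactate dehydrogenase subunit, rose, at 64.9 ± 4.12 TPM in cerebellum IL-34 and 50.9 ± 5.27 TPM in cerebellum CSF-1, and at 53.8 ± 3.44 TPM in forebrain IL-34 and 40.3 ± 0.986 TPM in forebrain CSF-1 libraries (SD, n = 3 each). Its mean difference was 0.38 (SE 0.06, adjusted p = 0.00261), and it also passed within forebrain, at 0.41 (SE 0.08, adjusted p = 0.0401), both by limma. Ldhb made up 7.94 to 9.11% of Ldha and Ldhb TPM in cerebellum IL-34, 5.31 to 6.82% in cerebellum CSF-1, 5.38 to 6.07% in forebrain IL-34 and 3.72 to 4.16% in forebrain CSF-1 libraries. The genes that fell were Adpgk, the ADP-dependent glucokinase (-0.24), Phka2, a phosphorylase kinase subunit (-0.27), and Pdha1, the E1 subunit of pyruvate dehydrogenase (-0.13). Of 7 pentose phosphate genes, 0 rose and 2 fell (28.6%), and these were the dehydrogenases G6pdx (-0.17) and Pgd (-0.18). Of 28 tested HIF pathway and hypoxia genes outside the set, 3 rose and 5 fell (28.6%). Cxcr4, the chemokine receptor, rose in cerebellum (0.56, adjusted p = 0.00372) and in forebrain (0.58, adjusted p = 0.00878, limma). Bhlhe40 rose too (0.26). Plod1, a lysyl hydroxylase of collagen, fell in cerebellum (-0.33) and in forebrain (-0.26), and Hmox1, heme oxygenase (-0.30), Tfrc, the transferrin receptor (-0.35), P4hb (-0.19) and Wsb1 (-0.21) fell over both regions. The last of the 3 that rose, Mif, is counted in the 28.6% of this list. It was listed at 0 in 7 libraries, and no fold is given for it. Between the regions, Aldoc, the brain aldolase, which is also an astrocyte marker, was lower in cerebellum under IL-34 (-1.29) and under CSF-1 (-0.84), and so was Lox, lysyl oxidase (-0.81 and -0.69). Gbe1, the glycogen branching enzyme, was higher in cerebellum under both (0.27 and 0.31).

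How firmly the ligand calls held differed by gene. Slc16a3, Eno1, Pkm and Pdk1 were called lower, and Bnip3l higher, for the mean of both regions under each of the 11 other settings and in each of the 12 fits that left out 1 library. Over these fits, Pdk1 ranged from -0.62 to -0.35 on the log2 scale, Pkm from -0.28 to -0.17, Slc16a3 from -0.30 to -0.16, Eno1 from -0.18 to -0.09 and Bnip3l from 0.22 to 0.52. Pgk1 was called in 10 of the 11 settings, and Hk2, Hk3 and Slc2a1 in 9. Within cerebellum, the calls between the ligands of Pdk1, Pkm and Pgk1 were kept in all 12 fits that left out 1 library, that of P4ha1 in 10, that of Eno1 in 9, that of Slc2a1 in 8, those of Bnip3l and Hk3 in 7, that of Tpi1 in 6, that of Egln1 in 5, those of Slc16a1 and Ero1l in 4, that of Gys1 in 2 and that of Pfkm in 1. Between the regions, Slc16a3 and Pygl were called lower in cerebellum under CSF-1 in all 12 other settings and all 12 such fits, and under IL-34 in 11 of 12 settings, the exception being the length floor as a covariate.

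**Figure D5:**
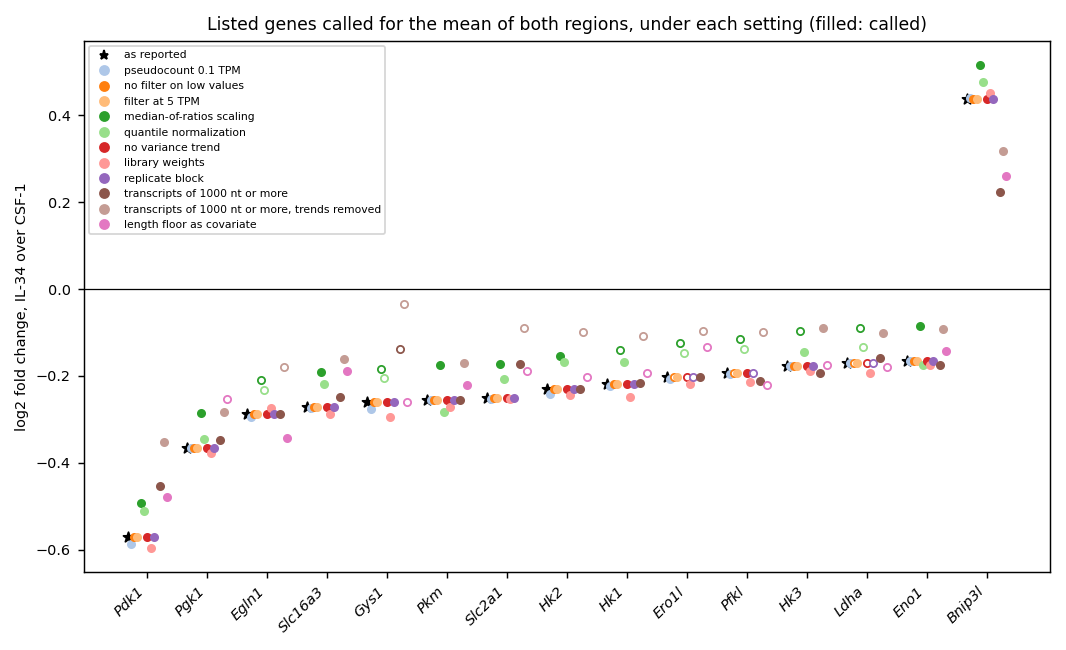
Log2 fold change, IL-34 over CSF-1 as the mean of both regions, of the 15 genes called there, under the reported fit (black star) and 11 other settings (coloured points); filled points had an adjusted p under 0.05 in limma. The points of Pdk1, Pkm, Eno1, Slc16a3 and Bnip3l are all filled, and no gene changes sign.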

How the data were processed

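RNA of 12 libraries of primary mouse microglia was measured, 3 for each region and ligand. Libraries came from the SMART-Seq v4 low-input chemistry, per the labels' protocols, whose text names human tissue although every other label is mouse. The authors deposited TPM values for each Ensembl transcript, which scale reads to transcript length and to a fixed library total. The submitters' processing notes name kallisto 0.43.0 and GRCm38, and no annotation release was found in these sources. TPM was summed per gene. Means of the 4 groups were fitted to log2(TPM + 1) with limma 3.58.1 (R 4.3.3), using a variance trend and 8 residual degrees of freedom. A gene entered the fit if 3 or more libraries reached 1 TPM, which 12419 genes did. The p-values were two-sided, adjusted by Benjamini-Hochberg over these genes and called under 0.05. Fold changes on this scale understate those of low genes. The pipeline was tested on simulated data. Figures were drawn with matplotlib 3.10.9.

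The 40 genes, the pathway and marker lists and the tests were chosen with earlier results of these data known. The rule for naming gives the values of every library for genes past the threshold in at least 1 of 6 contrasts, ranges for the others, and up to 4 genes per pathway list and contrast with the smallest p among those past the threshold. Alternatives covered the pseudocount, the filter, scaling, the variance model, weights for libraries, a replicate block, the groups in the fit, transcript length and leaving out each library in turn. Transcript lengths came from the annotation of GRCm38 used here, in which 114255 of 115879 transcripts (98.6%) were found.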

Additional observations from a re-analysis of the deposited data

How the results depend on the processing

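Counts of called genes depended on the processing in some comparisons and the direction of called genes rarely. Counts under other settings, here and above, are of listed genes alone. The share of all genes called under each setting is not given, so a changed count may be a change of the whole table. IL-34 against CSF-1 in cerebellum (14 called) had 4 calls with no filter on low values, 7 with median-of-ratios scaling, 7 with quantile normalization, 6 without the variance trend, 5 with only the compared groups in the fit, 23 with transcripts of 1000 nt or more and 0 with each library's length floor as a covariate. In forebrain (0 called) there was 1 call with a filter at 5 TPM, 1 with median-of-ratios scaling, 1 with quantile normalization, 5 with library weights, 3 with transcripts of 1000 nt or more, 8 when the trends of length and GC content were also removed, and 5 with the length floor as a covariate. The mean of both regions (15) had 6 with that covariate. Cerebellum against forebrain under IL-34 (12) had 19 with transcripts of 1000 nt or more, 19 with the trends removed and 0 with the covariate. Under CSF-1 (5) there were 9 with median-of-ratios scaling, 2 with only the compared groups, 10 with transcripts of 1000 nt or more and 14 with the trends removed. The fit with only the compared groups was not run for the mean and the interaction, which need all 4 groups. The length floor is low in the cerebellum IL-34 group, so that this covariate and the group can hardly be told apart; for the other settings the cause was not tested.

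In 4 cases a gene called under another setting had the opposite sign to the reported fit, where it was not called. Pfkp in cerebellum was -0.19 with IL-34 over CSF-1 with transcripts of 1000 nt or more, against 0.0013 as reported. Between the regions under IL-34, Bnip3l was -0.39 with transcripts of 1000 nt or more and -0.22 with the trends removed, against 0.06 as reported, and Hif1a was 0.11 with the trends removed, against -0.03 as reported.

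Leaving out 1 library in turn gave 10 to 17 calls for the mean of both regions, 3 to 13 in cerebellum, 0 to 1 in forebrain, 0 to 0 for the interaction, 7 to 13 between the regions under IL-34 and 3 to 7 under CSF-1. The cerebellar ligand count was 7 and 3 without cerebellum IL-34 replicates 1 and 2, 3 and 4 without cerebellum CSF-1 replicates 1 and 2, and 9 without forebrain IL-34 replicate 2. The count between the regions under IL-34 was 7 without cerebellum IL-34 replicate 2. That under CSF-1 was 3 without each of cerebellum CSF-1 replicates 1, 2 and 3 and forebrain CSF-1 replicate 3.

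Replicate numbers are not stated to mark a shared culture across groups, and no pairing by number showed in the libraries. With 3 libraries per group, the correlations that follow cannot exclude one. The deviations of same-numbered libraries from their group means correlated at -0.454 to 0.458 over 18 pairs, 5 of them above 0.1. Those of other pairs correlated at -0.455 to 0.569 over 36 pairs, 9 of them above 0.1. Of the 12 libraries, 1 correlated best with its own number. The highest correlations (0.458 to 0.569) were among cerebellum CSF-1 replicate 1, forebrain IL-34 replicate 1 and forebrain CSF-1 replicate 3. Their length floors were also the highest, at 661, 669 and 669 nt. The part of the length floor in these correlations was not tested. With the replicate block, 9 genes were called in cerebellum. TPM keeps no depth, so that differences of low genes such as Ak4 and Pdk4 could not be assessed.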
